A study of Rattus norvegicus with 42 samples.

Results

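Potassium channel subunits are the proteins that form, silence, anchor or tune the pores through which potassium crosses the cell membrane. Every transcript whose gene symbol began with Kcn followed by a letter was taken, which gave 107 transcripts of 89 genes among 15516 transcripts of 14304 genes. Hippocampal RNA of male Sprague Dawley rat pups was sequenced, with 1 library per animal. Each pup received a single intraperitoneal dose at postnatal day 7, of saline (vehicle, VEH), phenobarbital (PB, 75 mg/kg, a barbiturate that potentiates GABA-A receptors) or levetiracetam (LEV, 200 mg/kg, an antiseizure drug that binds the synaptic vesicle protein SV2A), and the tissue was collected 72 h later. Each litter gave 1 animal to each treatment, and the pups went back to the dam after dosing. The comparison rests on 13 VEH, 14 PB and 14 LEV animals, since 1 further VEH animal is labelled as excluded from analysis.

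The animals carry sample codes of 2 forms, which separate animals 1 to 6 of each treatment (6 VEH, 6 PB and 6 LEV) from animals 7 to 14 (7 VEH, 8 PB and 8 LEV). The rats were bought in 2 orders, but the sources used here do not say whether the form of the code marks the order. The form was therefore carried as a term in each test on all animals, and the treatments were also compared within each form. Estimated counts summed to between 9499494 and 14488125 per animal, with a median of 11319119. All 7 genes of a list of excitatory hippocampal neuron markers were measured, and none was at 0 in all 41 animals. The sum of their normalized counts ran from 21391 to 33159.

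Potassium channels set the resting potential of neurons and glia, repolarize the action potential and limit repetitive firing. Fast-spiking interneurons, including those that contain parvalbumin, depend on Kv3 channels built from Kcnc subunits. Silent subunits such as Kcng4 and Kcnv1 do not conduct alone and modify other voltage-gated subunits, beta subunits such as Kcnab2 and Kcne5 modify gating or trafficking, and the inward rectifier Kcnj10 (Kir4.1) carries potassium into astrocytes. These transcripts thus report on several cell types at once. In whole tissue, fewer cells of a type and less RNA per cell cannot be told apart.

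The sequences upstream of the subunit genes that carry the results are shown so that the features they share, or lack, can be read beside the values. Promoters were taken from RefSeq on build GRCr8, a different build from the rn6 coordinates of the counts. Of the 89 member genes 60 had an entry. Each window holds the 250 bases before the annotated start. Capitals mark matches, on either strand. The GC box was searched as GGGCGG, and the CCAAT box by its name. The TATA box was searched as TATAAA, and the core of the cyclic AMP response element as TGACG. The windows lie at chr1:106038997-106039246 (plus strand), chr7:49587364-49587613 (plus strand), chr19:64597889-64598138 (minus strand), chrX:110727850-110728099 (minus strand), chr5:168270761-168271010 (minus strand) and chr13:87334260-87334509 (plus strand). The 2 Kcnc2 entries overlap and the upstream one is shown.
Kcnc1: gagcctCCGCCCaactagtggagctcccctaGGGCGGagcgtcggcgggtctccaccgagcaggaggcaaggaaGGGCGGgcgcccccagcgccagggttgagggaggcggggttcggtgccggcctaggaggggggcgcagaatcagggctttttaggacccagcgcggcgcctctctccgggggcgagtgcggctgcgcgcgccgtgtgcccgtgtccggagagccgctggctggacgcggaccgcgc
Kcnc2: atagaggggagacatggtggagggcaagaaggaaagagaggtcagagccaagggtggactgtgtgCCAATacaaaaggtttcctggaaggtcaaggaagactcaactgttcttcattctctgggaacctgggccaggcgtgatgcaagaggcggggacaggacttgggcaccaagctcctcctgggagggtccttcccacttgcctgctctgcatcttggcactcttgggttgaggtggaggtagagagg
Kcng4: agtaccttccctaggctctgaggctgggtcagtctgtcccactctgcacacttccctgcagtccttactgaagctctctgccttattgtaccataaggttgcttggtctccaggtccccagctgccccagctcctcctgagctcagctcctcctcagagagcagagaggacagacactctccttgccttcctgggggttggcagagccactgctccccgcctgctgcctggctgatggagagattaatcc
Kcne5: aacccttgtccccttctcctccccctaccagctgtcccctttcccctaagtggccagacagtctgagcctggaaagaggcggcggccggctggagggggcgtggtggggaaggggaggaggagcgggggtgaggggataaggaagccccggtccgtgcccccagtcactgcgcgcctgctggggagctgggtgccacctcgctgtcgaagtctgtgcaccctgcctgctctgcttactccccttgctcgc
Kcnab2: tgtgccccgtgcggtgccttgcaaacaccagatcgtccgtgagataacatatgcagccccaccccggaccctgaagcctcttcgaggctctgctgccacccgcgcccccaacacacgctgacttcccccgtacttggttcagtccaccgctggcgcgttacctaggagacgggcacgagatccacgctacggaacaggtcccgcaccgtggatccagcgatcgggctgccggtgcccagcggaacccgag
Kcnj10: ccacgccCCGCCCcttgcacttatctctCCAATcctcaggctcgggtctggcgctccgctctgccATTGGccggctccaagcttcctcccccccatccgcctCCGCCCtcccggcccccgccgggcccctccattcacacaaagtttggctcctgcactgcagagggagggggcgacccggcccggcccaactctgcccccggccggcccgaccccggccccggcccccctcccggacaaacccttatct

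Kcnv1, Kcnh2 and Kcnk10 had no entry. No motif of this set was held by all 5 windows shown for subunits that fell after PB. Kcnc1 held 3 GC boxes, Kcnc2 held 1 CCAAT box, and Kcng4, Kcne5 and Kcnab2 held none of these letters. The Kcnj10 window held 2 GC boxes and 2 CCAAT boxes. G and C made up 74.4% of the Kcnc1 window, 72.4% of Kcnj10, 67.6% of Kcne5, 65.2% of Kcnab2, 58.4% of Kcng4 and 56.0% of Kcnc2, against a median of 51.2% over all promoters. Among 33469 promoter windows of the same length, 30.5% held a GC box, 34.0% a CCAAT box, 12.9% a TATA box and 18.2% the response element core. Among the 66 windows of member genes, 33 held a GC box, and the other shares were 25.8%, 3.03% and 18.2%. These matches describe the letters only.

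Of the 107 transcripts, 89 of 79 genes passed the filter on low counts and were tested. The other 18 transcripts were not tested, and 10 genes (Kcnn4, Kcna7, Kcne3, Kcnv2, Kcnk18, Kcnmb1, Kcnj15, Kcnmb3, Kcnj1 and Kcne4) had no tested transcript. Symbols with several transcripts (9 genes, 27 transcripts) share reads, which the authors' counting split by estimation, so that their separate values are less certain. Kcnk6 is listed at 2 loci with identical values.

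The first question was whether a single dose of either drug changed potassium channel transcripts 72 h later. After PB, 6 of the 89 tested transcripts were lower than in VEH and none was higher at an adjusted p under 0.05 (quasi-likelihood F test of edgeR, Benjamini-Hochberg adjusted across the 13062 tested transcripts). These were Kcnc1, 1 Kcnc2 transcript, Kcng4, Kcnv1, Kcne5 and Kcnab2, and Kcng4 and Kcne5 also passed the fold limit (a log2 fold change of about 0.32 in either direction). Over all transcripts 5.39% passed the same limit, 3.46% lower and 1.93% higher, and 0.605% passed with the fold limit. The share of members that passed was 6.74%, close to the 5.39% over all transcripts. At an unadjusted p under 0.05 the shares were both 20.2%, with 14 members lower and 4 higher. The median log2 fold change of the members was -0.0064, against 0.0046 over all transcripts.

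After LEV, none of the 89 transcripts passed the adjusted limit (edgeR's quasi-likelihood test), and DESeq2 called none with the fold limit. Over all transcripts 0.00766% passed, and 0% with the fold limit. The smallest adjusted p of a member was 0.62, while 8 members had an unadjusted p under 0.05 (8.99%, against 5.84% of all transcripts). The 2 drugs were also compared directly. Between PB and LEV, 4 members passed, Kcnc1, Kcnc2 and Kcnh2 lower and Kcnk10 higher after PB. Over all transcripts 4.45% passed, 2.78% lower and 1.67% higher after PB. No member also passed the fold limit, which 0.582% of all transcripts did, and 13.5% of the members, against 19.6% of all transcripts, had an unadjusted p under 0.05. DESeq2 called none past the fold limit either.

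**Figure D1:**
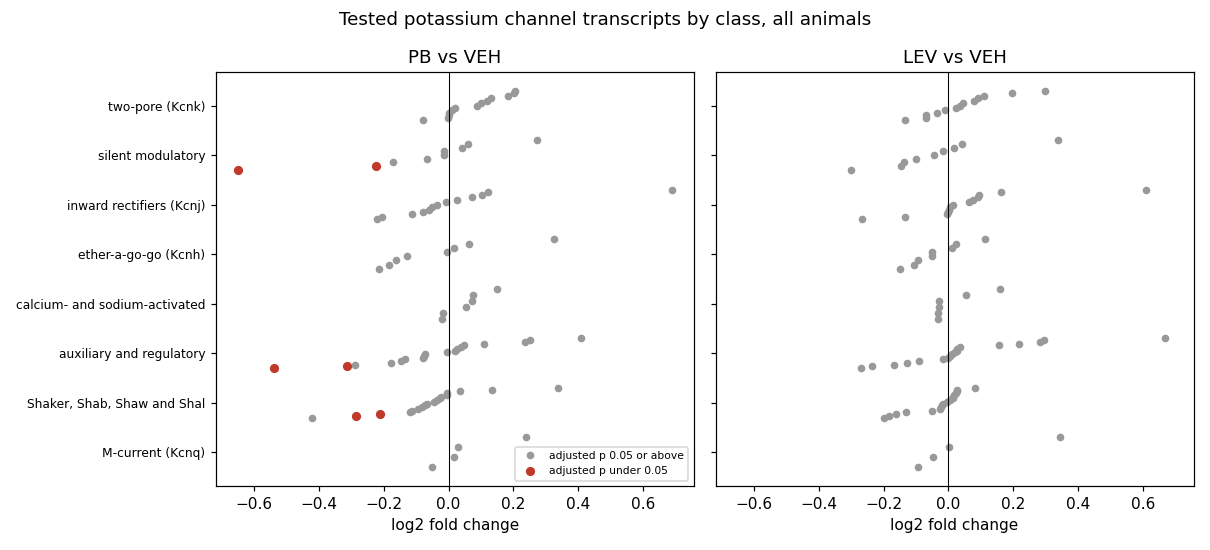
Log2 fold change of each tested potassium channel transcript (x axis) by class (y axis) for PB against VEH (left) and LEV against VEH (right), all animals. Red points passed an adjusted p of 0.05 in edgeR's test. The 6 red points of the left panel lie below 0, and the right panel has none.

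The delayed rectifiers Kcnc1 and Kcnc2 form Kv3.1 and Kv3.2, the fast channels of interneurons. Kcnc1 (NM_012856, rn6 chr1:102414625-102456412) ranged from 551 to 901 normalized counts in VEH, with a median of 679. It ranged from 476 to 722 after PB, with a median of 561, and from 548 to 768 after LEV, with a median of 676. The groups overlapped, but in 13 of 14 PB animals the count was under the VEH average of the same form of code. The log2 fold change was -0.21 ± 0.05 (SE) after PB, with an adjusted p of 0.0092 by edgeR, and -0.02 ± 0.05 after LEV.

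Kcnc2 transcript NM_139216 (chr7:54980120-55159352) ran from 186 to 303.5 normalized counts in VEH (median 229), from 127 to 261 after PB (median 193) and from 185 to 326 after LEV (median 238). Again 13 of 14 PB animals were below the VEH mean of their form. It fell by 0.29 ± 0.08 on the log2 scale after PB, with an adjusted p of 0.019 by edgeR. The second Kcnc2 transcript, NM_139217, had a mean of 91.8 in VEH and 91.6 after PB, and did not pass. With the counts of both transcripts summed per symbol, the Kcnc2 log2 fold change was -0.20, with an adjusted p of 0.056 by edgeR, and it no longer passed the adjusted limit.

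The silent subunit Kcng4 (NM_001107435, chr19:52270907-52282878) gave the most negative log2 fold change of the 89 members. In VEH it ranged from 72.3 to 198 normalized counts with a median of 117.5, after PB from 5.8 to 113 with a median of 81.6, and after LEV from 63.7 to 127.5 with a median of 104. All 14 PB animals were below the VEH mean of their form. The log2 fold change was -0.65 ± 0.17 after PB, with an adjusted p of 0.020 by edgeR, and -0.30 ± 0.17 after LEV, with an adjusted p of 0.86. PB animal 2 held the 5.8, and the next lowest PB animal had 53.0.

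Kcnv1 (NM_021697, chr7:84016864-84023206), a silent subunit, ran from 264 to 416 in VEH (median 317), from 187 to 325.5 after PB (median 274) and from 235 to 362 after LEV (median 298). After LEV its log2 fold change was -0.15, with an adjusted p of 0.81 by edgeR. After PB it fell by 0.22 ± 0.06 on the log2 scale, with an adjusted p of 0.031. Kcnv1 did not pass without PB animal 2, when the log2 fold change was -0.19 and the adjusted p 0.056 by edgeR, and it passed in 37 of 41 fits that left out 1 animal. The other fits in which it did not pass left out VEH animal 10, VEH animal 13 or PB animal 7, with adjusted p values of 0.055, 0.070 and 0.057.

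The beta subunit Kcne5 (NM_001101003, chrX:113583844-113584460), which modulates voltage-gated channels, ranged from 82.9 to 169.5 in VEH (median 107), from 20.4 to 119.9 after PB (median 85.8) and from 70.7 to 160 after LEV (median 96.1). All 14 PB animals were below the VEH mean of their form. Its log2 fold change was -0.54 ± 0.14 after PB, with an adjusted p of 0.014, and -0.27 ± 0.14 after LEV, with an adjusted p of 0.84.

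Kcnab2 (NM_017304, chr5:169572712-169658876), a cytoplasmic beta subunit of Kv1 channels, ran from 809 to 1159 in VEH (median 1023), from 455 to 1130 after PB (median 843) and from 740 to 1072 after LEV (median 901). After LEV its log2 fold change was -0.17, with an adjusted p of 0.84 by edgeR. After PB it was -0.31 ± 0.08, with an adjusted p of 0.016. Kcnc1, Kcnc2, Kcng4, Kcne5 and Kcnab2 passed the adjusted limit in each of the 41 fits that left out 1 animal. Kcng4 came to the edge of the limit, with an adjusted p of 0.0498 by edgeR without VEH animal 3, which held the highest VEH count of 198. PB animal 2 was the lowest PB animal for 5 of the 6 transcripts, Kcnc1 being the exception. Without it, the log2 fold changes were -0.55 for Kcng4, -0.46 for Kcne5, -0.27 for Kcnab2, -0.25 for Kcnc2 and -0.19 for Kcnc1, with adjusted p values of 0.0071, 0.011, 0.023, 0.035 and 0.018 by edgeR.

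**Figure D2:**
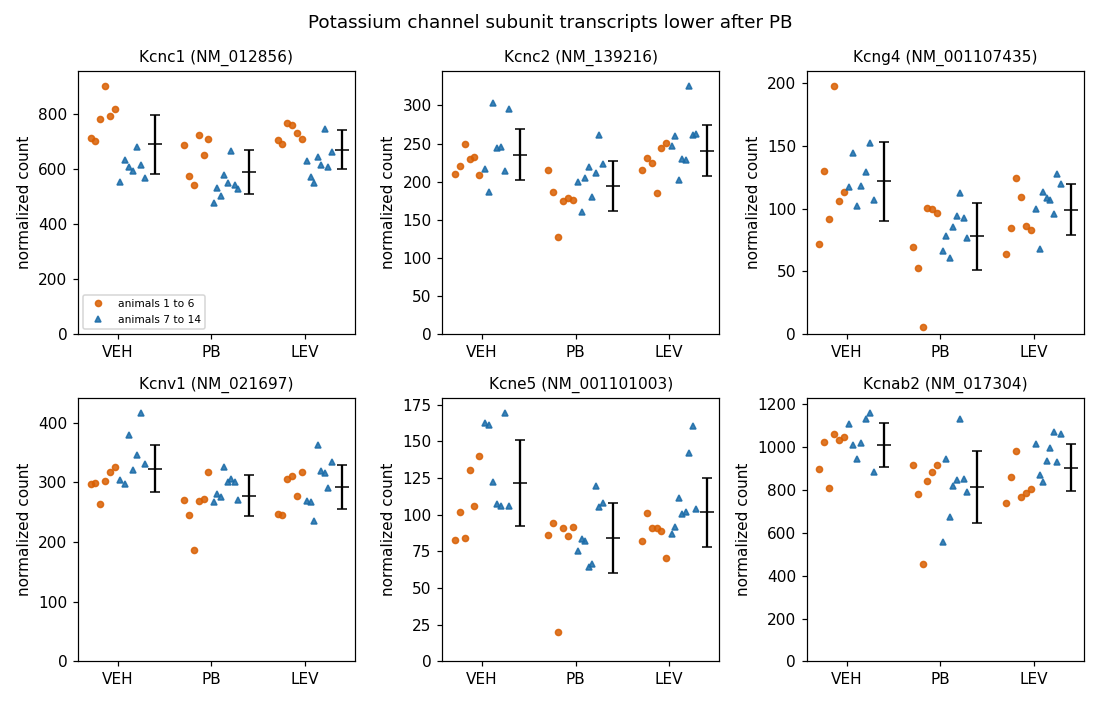
Normalized counts (y axis) of the 6 potassium channel transcripts that were lower after PB, by treatment (x axis), with 1 point per animal, circles for animals 1 to 6 and triangles for animals 7 to 14. Bars are the mean ± SD of the treatment. The lowest Kcng4 point, 5.8, and the lowest Kcne5 point, 20.4, are both PB animal 2.

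Some markers of cell types were also lower after PB, where 3.46% of all transcripts were lower and 1.93% higher. Of 13 transcripts of 9 interneuron genes, 3 were lower after PB at an adjusted p under 0.05 and none was higher, with a median log2 fold change of -0.20, against none after LEV. Within the forms of code, 0 of 12 tested passed after PB in animals 1 to 6 (0.488% of all transcripts). In animals 7 to 14, 3 of 13 passed, all lower (4.09% of all transcripts). Pvalb (parvalbumin) ranged from 27.4 to 94.7 in VEH, from 9.7 to 147 after PB and from 46.5 to 117 after LEV, and its log2 fold change after PB was -0.83 ± 0.22 with an adjusted p of 0.019. Sst (somatostatin) and Slc32a1 (the vesicular GABA transporter) also fell, by 0.38 and 0.27 on the log2 scale. The summed interneuron markers ran from 5661 to 7998 in VEH and from 4744 to 7505 after PB, and no defining marker was at 0 in all 41 animals. Excitatory neuron markers moved too: 3 of 8 transcripts were lower after PB, Camk2a by 0.26 and the 2 listed Fibcd1 transcripts by 0.21 and 0.22. Among astrocyte markers 1 of 16 was higher (Gfap, 0.32) and 2 were lower, and among oligodendrocyte markers 1 of 12 was lower (Opalin, -1.39). Of 17 skeletal muscle transcripts only 3 passed the filter on low counts, and these 3 were lower. A transcript can pass this filter through the groups where it is high, so these 3 do not stand for the untested muscle transcripts. In animals 7 to 14 only 1 muscle transcript was tested, and it did not pass. None of 7 pericyte and endothelial or 6 microglial transcripts passed (3 and 1 at an unadjusted p under 0.05). The part of these cell types in the 6 lower subunits was not tested.

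Across animals, Kcnc1 and Kcng4 followed Pvalb after the mean of each treatment and form of code was removed. For Kcnc1, r was 0.569 (permutation p = 2e-04, adjusted 4e-04 over 6 relations) and rho 0.582 (permutation p = 0.00028), with r of 0.509 without the 2 animals farthest from the median of Pvalb. Within the forms of code, r was 0.640 in 18 animals (permutation p = 0.0146) and 0.546 in 23 animals (permutation p = 0.00255). For Kcng4, r was 0.688 (permutation p = 0.00169, adjusted 0.00253) and rho 0.498 (permutation p = 0.00203), and r was 0.426 without the 2 farthest animals. Within forms it was 0.772 (permutation p = 0.00816) and 0.336 (permutation p = 0.0959), so that the Kcng4 relation did not hold in animals 7 to 14 alone. The permutations shuffled animals within treatment and form, two-sided.

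**Figure D3:**
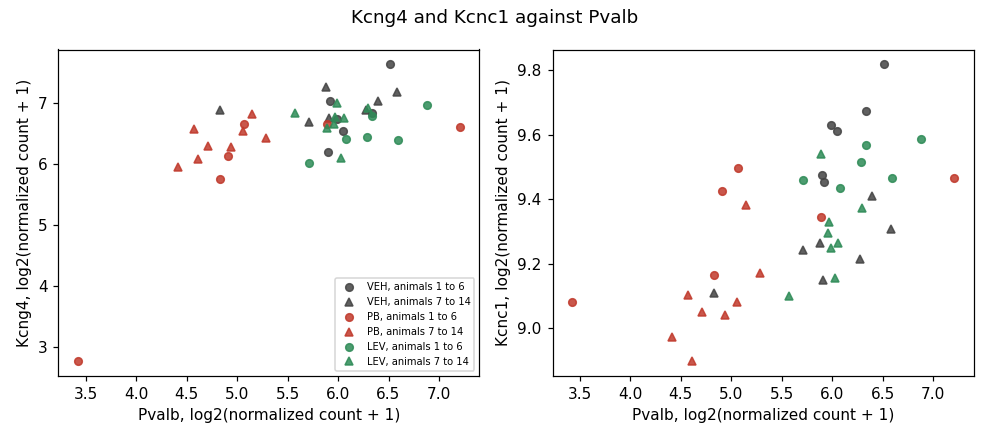
Kcng4 (left) and Kcnc1 (right) against Pvalb, all as log2(normalized count + 1), with 1 point per animal, coloured by treatment and shaped by form of code. The lone point at the lower left of the Kcng4 panel is PB animal 2.

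Directly between the drugs, Kcnc1 was lower after PB than after LEV by 0.19 ± 0.05 and Kcnc2 (NM_139216) by 0.31 ± 0.07 on the log2 scale, with adjusted p values of 0.022 and 0.012 by edgeR. Kcng4, Kcne5, Kcnab2 and Kcnv1 did not pass between the drugs. Their log2 fold changes were -0.35, -0.27, -0.15 and -0.077, with adjusted p values of 0.25, 0.26, 0.31 and 0.54 by edgeR. Kcnh2 and Kcnk10 passed between the drugs but not against VEH, where their adjusted p values after PB were 0.060 and 0.083 by edgeR. Kcnh2 did pass against VEH with DESeq2 (adjusted p 0.040). Kcnh2 (NM_053949, chr4:7355601-7387242), the ERG channel, ran from 327 to 545 in VEH (median 423), from 270 to 454 after PB (median 376) and from 380 to 468 after LEV (median 437). It was lower after PB than after LEV by 0.19 ± 0.06 on the log2 scale, with an adjusted p of 0.046. Kcnk10 (NM_023096, chr6:122419046-122545900), the leak channel TREK-2, ran from 167 to 287 in VEH (median 238), from 203 to 360 after PB (median 266) and from 197 to 252 after LEV (median 232.5). It was higher after PB than after LEV by 0.24 ± 0.07, with an adjusted p of 0.039 by edgeR. Both were near the adjusted limit: Kcnh2 passed in 23 and Kcnk10 in 29 of 41 fits that left out 1 animal, and without PB animal 7 their adjusted p values were 0.092 and 0.094.

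The transcripts lower after PB were also counted by class of channel. The 4 families Shaker, Shab, Shaw and Shal gave 2 lower transcripts of 18 tested after PB, the silent subunits 2 of 9 and the auxiliary subunits 2 of 18, where 3.46% of all transcripts were lower. The 8 Kcnh, 13 Kcnj, 13 Kcnk, 4 Kcnq and 6 calcium- or sodium-activated transcripts gave none. Median log2 fold changes after PB ran from -0.067 (Kcnh) to 0.086 (Kcnk), where 9 of 13 transcripts were above 0. After LEV the medians ran from -0.05 (Kcnh) to 0.035 (Kcnk).

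Other members known from hippocampal neurons did not pass after PB with edgeR. Among the Kv4 channels of A-type current, Kcnd2 had a log2 fold change of -0.094 ± 0.031 after PB, with an adjusted p of 0.061 (0.040 with DESeq2), and in 13 of 14 PB animals the count was under the VEH average of the same form. Its partner Kcnip4 (KChIP4) had -0.29 ± 0.10 and an adjusted p of 0.064, with all 14 PB animals below. The Kv1 channels Kcna1 and Kcna2 had -0.11 ± 0.09 and -0.067 ± 0.11.

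Other well known members did not pass either. The M-current subunits Kcnq3 and Kcnq5 had log2 fold changes of 0.018 ± 0.077 and -0.052 ± 0.048. The girk subunit Kcnj6 had -0.079 ± 0.044, the large-conductance channel Kcnma1 had 0.074 ± 0.072, and the small-conductance Kcnn1 had 0.15 ± 0.07 with an adjusted p of 0.24. Kcnh3, Kcng1 and the leak channel Kcnk1 had -0.0064 ± 0.061, 0.041 ± 0.048 and -0.00082 ± 0.047.

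Genes outside the family that act with potassium channels were counted against the same 3.46% of all transcripts that were lower after PB. Of 21 tested transcripts of channel partners (scaffolds and auxiliary proteins), 2 were lower after PB, among them Dpp6 (the Kv4 partner), by 0.093 on the log2 scale. Of 16 tested transcripts of the sodium pump and potassium clearance, 2 were lower after PB, among them the pump beta subunit Atp1b1, by 0.16. No transcript of either list passed after LEV on all animals. In animals 1 to 6, where Kcnj10 was lower too, 3 of the 16 pump and clearance transcripts were lower after LEV, and 2.64% of all transcripts passed. The clearance genes include the water channel Aqp4, with several transcripts, 2 of them (NM_012825 and NM_001317749) with identical values. The 3 lower transcripts are not named here, so they cannot be read as 3 separate measurements of pumps.

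The treatments were then compared within each form of code. In animals 1 to 6, 1 member (Kcnj10) passed the adjusted limit after PB and 2 passed after LEV, of which Kcnj10 alone also passed the fold limit. Over all transcripts 0.488% passed after PB, 0.13% with the fold limit, and 2.64% passed after LEV, 1.3% with the fold limit. Between PB and LEV in these animals no member passed, against 0.618% of all transcripts, and DESeq2 called none. At an unadjusted p under 0.05 the share was 12.4% of the members and 15% of all transcripts.

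In animals 7 to 14, Kcng4 and Kcne5 were called after PB, where 4.09% of all transcripts passed and 1.29% passed with the fold limit. Their log2 fold changes there were -0.58 ± 0.13 and -0.60 ± 0.16, with adjusted p values of 0.016 and 0.030, and in animals 1 to 6 they were -0.74 ± 0.35 and -0.46 ± 0.23, with adjusted p values of 0.40 and 0.44. Counts of the ribosomal RNA Rn18s differed in the same animals 7 to 14, from 95241 to 136731 in VEH, from 48130.5 to 98403 after PB and from 42664 to 120639 after LEV. In animals 1 to 6 they ran from 109446 to 149197, from 109250 to 196429 and from 108468 to 156580. Their part in the results of animals 7 to 14 was not tested. After LEV no member passed in animals 7 to 14 (0.0459% of all transcripts, and at an unadjusted p under 0.05 3.37% of the members and 4.99% of all transcripts), and DESeq2 called none. Between PB and LEV in animals 7 to 14 none passed with edgeR (1.01% of all transcripts, and at an unadjusted p under 0.05 14.6% of the members and 15% of all transcripts), and DESeq2 called 1.

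Kcnj10 (NM_031602, chr13:90723077-90752582), the astrocytic inward rectifier, was lower after both drugs than in VEH in animals 1 to 6. It ranged from 270 to 357 normalized counts in VEH (median 289), from 192 to 236 after PB (median 214) and from 165 to 202 after LEV (median 176.5). No PB or LEV animal reached the lowest VEH animal, while the PB and LEV ranges overlapped. The log2 fold change was -0.48 ± 0.08 after PB, with an adjusted p of 0.0093, and -0.73 ± 0.08 after LEV, with an adjusted p of 5.5e-05 by edgeR.

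In animals 7 to 14 the Kcnj10 groups overlapped. Normalized counts ran from 260 to 315 in VEH (median 294), from 233 to 351 after PB (median 309) and from 243 to 360 after LEV (median 321). The log2 fold changes were 0.024 ± 0.092 after PB and 0.10 ± 0.09 after LEV, with adjusted p values of 0.91 and 0.95. The change after LEV differed between the forms by 0.84 ± 0.12, with an adjusted p of 0.00014 for the interaction, where 0.842% of all transcripts passed and Kcnj10 was the only member. The change after PB differed by 0.50 ± 0.12, with an adjusted p of 0.10, where 0.0689% of all transcripts and no member passed, and 8.99% of the members and 11.1% of all transcripts had an unadjusted p under 0.05. With DESeq2 the adjusted p of the PB difference was 0.031 for Kcnj10. The difference between PB and LEV varied between the forms for no member (0.023% of all transcripts, none by DESeq2, and at an unadjusted p under 0.05 11.2% of the members and 6.91% of all transcripts).

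On all animals together Kcnj10 did not pass: the log2 fold change was -0.22 ± 0.09 after PB and -0.27 ± 0.09 after LEV, with adjusted p values of 0.14 and 0.62. With a term that let the treatment change differ between the forms, the averages were -0.23 and -0.32, with adjusted p values of 0.024 and 0.019 by edgeR.

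**Figure D4:**
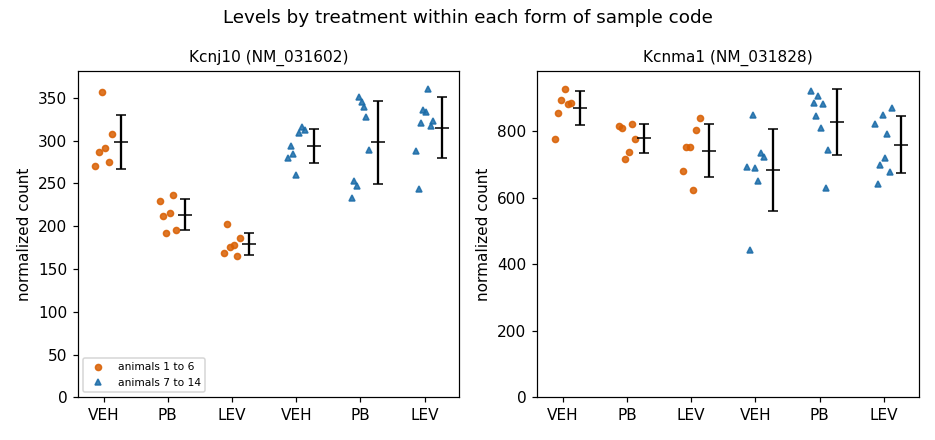
Normalized counts (y axis) of Kcnj10 (left) and Kcnma1 (right) by treatment, first in animals 1 to 6 (circles) and then in animals 7 to 14 (triangles), with 1 point per animal and the mean ± SD beside each group. For Kcnj10 the PB points of animals 1 to 6 lie between 192 and 236 and the LEV points between 165 and 202, all below the VEH points.

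Other astrocyte transcripts also changed in animals 1 to 6, in both directions. Of 16 transcripts of 7 astrocyte genes, 6 were lower and 2 higher after LEV, and 2 were lower and 1 higher after PB. Over all transcripts 2.64% passed there after LEV and 0.488% after PB. Aqp4, Slc1a3 and Slc1a2 each have several of the 16 transcripts, which share reads, so the counts are not of separate genes. The glutamate transporter Slc1a3 (NM_019225) fell by 0.42 on the log2 scale after LEV and by 0.21 after PB, and Slc1a2 (NM_001302089) fell by 0.90 and 0.68. A further Slc1a3 transcript, NM_001289943, was higher, with log2 fold changes of 1.14 and 0.83. The means of Slc1a3 NM_001289941 and NM_001289942 were also higher after LEV, 422 and 102 against 283 and 67.0 in VEH. The water channel Aqp4 (NM_012825, with the same values as NM_001317749) fell by 0.37 after LEV. The mean of Aqp4 NM_001142366 was also lower after LEV, 1319 against 1715 in VEH. Those of Aqp4 NM_001270558 and NM_001270559 were higher, 597 and 273 against 483 and 215, so the Aqp4 transcripts did not move as 1. The summed astrocyte markers ran from 35659 to 42779.5 in VEH, from 34156 to 37119 after PB and from 29866 to 34180.5 after LEV in these animals. No astrocyte marker was at 0 in all 41 animals. Their part in the Kcnj10 result was not tested. After removal of the group means, Kcnj10 did not follow the summed Aqp4 transcripts across animals (r = 0.0719, permutation p = 0.649, adjusted 0.649, rho = 0.0726, permutation p = 0.655, and r = 0.0163 without the 2 farthest animals), with r of 0.299 (permutation p = 0.259) in animals 1 to 6 and -0.0826 (permutation p = 0.712) in animals 7 to 14.

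Skeletal muscle markers also differed in the same animals. Their summed level ran from 299 to 454 in VEH, from 272 to 546 after LEV and from 120 to 170 after PB in animals 1 to 6. Of 17 muscle transcripts 5 passed the filter on low counts there, and 4 of these were lower after PB. A transcript can pass this filter through the groups where it is high, so these counts do not stand for the untested muscle transcripts. In animals 7 to 14 only 1 was tested, and it did not pass. No muscle gene was at 0 in all 41 animals. Their part in the PB values of animals 1 to 6 was not tested.

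Kcnma1 (NM_031828, chr15:344203-1048848) ran from 777 to 925 in VEH, from 715.5 to 819 after PB and from 623 to 837 after LEV in animals 1 to 6, and from 441 to 848, 627 to 919.6 and 642 to 870.0 in animals 7 to 14. After PB it had -0.16 ± 0.06 in the first form and 0.28 ± 0.10 in the other, of opposite sign, and neither passed. The difference between the forms was 0.43 ± 0.13 for PB, with an adjusted p of 0.18 by edgeR.

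Kcnj13 (Kir7.1) and Kcne2, which are known from the choroid plexus epithelium, varied widely between animals of each treatment. Kcnj13 (NM_053608) ran from 1.9 to 238 in VEH (median 22.5), from 0 to 308 after PB (median 41.8) and from 1.1 to 268 after LEV (median 86.0). Kcne2 (NM_133603) spanned 39.7 to 406, 50.6 to 528 and 39.6 to 645. The groups overlapped almost wholly, and the log2 fold changes were 0.69 ± 0.71 and 0.41 ± 0.46 after PB and 0.61 ± 0.71 and 0.67 ± 0.46 after LEV.

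The choroid plexus marker level of each animal (the mean log2 CPM of 13 transcripts of genes such as Ttr, transthyretin) varied in the same way, and the summed markers ran from 183 to 85384 normalized counts. The list holds 12 genes, none was at 0 in all 41 animals, and none of the 13 transcripts passed after either drug. After removal of the group means, r with this level was 0.973 for Kcnj13 and 0.965 for Kcne2 (permutation p = 1e-05 for both, the smallest that 100000 permutations give, adjusted 3e-05), and rho was 0.962 and 0.961 (permutation p = 1e-05 for both). Within animals 1 to 6 r was 0.966 and 0.965, within animals 7 to 14 it was 0.985 and 0.967 (permutation p = 1e-05 for each), and without the 2 farthest animals it was 0.969 and 0.959. With the level as a covariate, the log2 fold changes after PB were -0.050 for Kcnj13 and -0.099 for Kcne2.

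**Figure D5:**
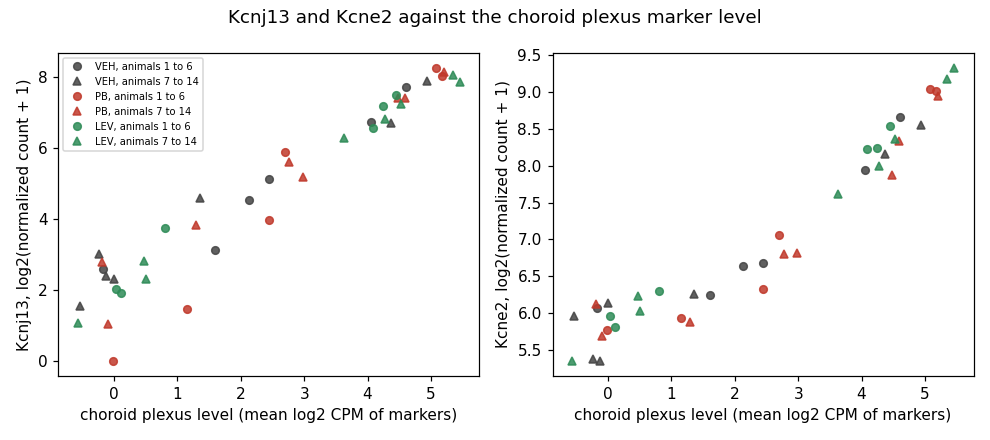
Kcnj13 (left) and Kcne2 (right) as log2(normalized count + 1) against the choroid plexus marker level (mean log2 CPM), with 1 point per animal, coloured by treatment and shaped by form of code. Points of the 3 treatments are mixed along the whole range of the level.

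Kcnj8, the pore of the vascular KATP channel, was set beside Abcc9, the sulfonylurea receptor of pericytes. Its mean was 71.0 ± 16.2 (SD, n = 13) in VEH, 61.4 ± 9.0 (SD, n = 14) after PB and 64.5 ± 9.1 (SD, n = 14) after LEV. The log2 fold change after PB was -0.21 ± 0.10, with an adjusted p of 0.23 by edgeR. Across animals r with Abcc9 was 0.283 (permutation p = 0.152, adjusted 0.183) and rho 0.146 (permutation p = 0.393), with r of 0.509 (permutation p = 0.0559) and 0.149 (permutation p = 0.633) in the 2 forms and 0.0756 without the 2 farthest animals.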

How the data were processed

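Hippocampal RNA of 42 animals was sequenced (paired-end, NEBNext Ultra libraries). Per the study's methods and the submitters' processing notes, the authors trimmed adaptors, dropped poor reads, used STAR 2.7.3a for alignment to rn6, and quantified RefSeq transcripts by expectation maximization in Partek. The deposited expected counts are those estimates, unnormalized, and 13.7% are not whole numbers. A second deposited table holds the authors' DESeq2 results (group means, fold changes, p values and adjusted p values) and was not used.

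Rounded expected counts went into edgeR 4.0.16 (R 4.3.3, limma 3.58.1): TMM normalization, filterByExpr by treatment, and the quasi-likelihood test on 3 treatments plus the form of the sample code, Benjamini-Hochberg adjusted across the 13062 transcripts tested. Called means adjusted p under 0.05 and a log2 fold change past about 0.32 either way, the study's fold limit. Within a form, and for the difference between forms (animals 7 to 14 minus 1 to 6), separate fits were made. A normalized count is the rounded count divided by the effective library size times the mean effective library size. The study removed batch with a linear model before DESeq2, and the sources do not say which animals form its batches. DESeq2 1.42.0 was an alternative. The other alternatives are given in the closing section. Correlations used log2(normalized count + 1) and 100000 permutations.

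Named members were Kcng4, Kcne5, Kcnj10, every member past the adjusted limit in any of the 3 comparisons on all animals, called within a form or with an adjusted interaction p under 0.05, the most abundant member and that with the smallest PB p in each class, and members well known in this tissue. Some members and list genes that the rule names are not reported here. Kcnj8 is given for its relation to Abcc9. The members, lists and motifs were chosen with earlier results of these data known. The edgeR steps were tested on simulated data. Counting error and the number of animals limit precision, and the edgeR p values set a difference against the spread between animals. No sample label gives the litter of an animal, so the main fits did not pair littermates.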

Additional observations from a re-analysis of the deposited data

Results flagged for a closer look

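Animals were flagged where the highest or lowest of a treatment within a form of code lay apart from the others by Dixon's criterion. Of 162 such groups over 27 transcripts, 10 were flagged, where chance gives 8.1 (about 1 in 20). PB animal 2 was lowest in 4 of them: Kcne5 at 20.4 normalized counts (the other PB animals 1 to 6 had 85.4 to 94.3), Kcnab2 at 455 (780 to 918), Kcna2 at 104 (194 to 230) and Kcnq3 at 1291 (1715 to 1920). LEV animal 5 was highest for Kcnq5 at 1215 (1031 to 1084) and lowest for the Kcnc2 transcript NM_139217 at 79.1 (94.6 to 101). Kcnk10 was at 178 in VEH animal 3 (246 to 267), Kcnh3 at 2455 in VEH animal 9 (1630 to 1893), Kcna1 at 397 in PB animal 11 (200 to 269) and Kcnj13 at 238 in VEH animal 14 (1.92 to 103).

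The Kcnj10 change after LEV was flagged because it differed between the forms of code, by 0.84 in log2 fold change. The VEH animal labelled as excluded had 35 tested potassium channel transcripts above the range of the 13 VEH animals and 14 below it, in all 55.1% of the members, against 63.7% of all tested transcripts.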

How the results depend on the processing

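On all animals 2 members were called after PB and none after LEV or between the drugs. Without the fold limit the counts were 6 after PB, 4 between the drugs and 2 after LEV in animals 1 to 6. With DESeq2 they were 2 after PB in animals 1 to 6, 1 between the drugs in animals 7 to 14, and 2 for the PB difference between forms. With all 14 VEH animals the LEV difference between forms gave 0. Leaving out 1 animal gave 2 to 4 calls after PB (4 without PB animal 5), 0 to 2 between the drugs (2 without LEV animal 10, 1 without LEV animals 3, 9, 11 or 14 or PB animals 6, 13 or 14) and 0 after LEV. Without the code form term Kcnc1 and Kcnv1 had adjusted p values of 0.069 and 0.068 after PB by edgeR, and with all 14 VEH animals Kcnv1 had 0.088. Between the drugs, Kcnc1, Kcnh2 and Kcnk10 no longer passed the adjusted limit without the form term (0.15, 0.089 and 0.054) or with all 14 VEH animals (0.11, 0.13 and 0.070). Kcnh2 and Kcnk10 also did not pass it with the treatment by form term (0.061 and 0.052). After PB, Kcnh2 passed the adjusted limit, but not the fold limit, with DESeq2 (0.040), all 14 VEH animals (0.049) and the choroid plexus covariate (0.037). Kcnd2 did so with DESeq2 (0.040) and a mean of at least 50 counts (0.048). The causes were not tested.

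Same-numbered animals did not deviate together: the median correlations were 0.0375, -0.0397 and 0.0077, with 3 of 13, 3 of 13 and 4 of 14 pairs above 0.1. With the replicate block 2 members were called after PB, 0 after LEV and 0 between the drugs, and Kcnk10 no longer passed the adjusted limit between the drugs (0.23, adjusted p 0.067 by edgeR).

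Signs turned only for log2 fold changes that had not passed. With the treatment by form term these were Kcnk1 after PB (0.0050) and Kcnh2 after LEV (-0.0018). With all 14 VEH animals they were Kcng1 (-0.0025) and Kcnc2 NM_139217 (0.050) after PB, and Kcnh2 (-0.033), Kcnk1 (-0.00017) and Kcnd2 (0.00086) after LEV. With the replicate block they were Kcnh3 (0.0074), Kcnk1 (0.012) and NM_139217 (0.0067) after PB, Kcnq5 (-0.0055) after LEV and Kcnj13 (-0.10) between the drugs. With the choroid plexus covariate they were Kcnh3 (0.0071), Kcne2 (-0.099), NM_139217 (0.0017) and Kcnj13 (-0.050) after PB, and Kcnh2 (-0.0035) and Kcnj13 (-0.17) after LEV.

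Leaving out 1 animal also turned signs, after PB for NM_139217 (-0.070 to 0.031), Kcnh3 (-0.022 to 0.040), Kcnk1 (-0.028 to 0.016) and Kcnq3 (-0.018 to 0.051). After LEV it did so for Kcnc1 (-0.047 to 0.00079), Kcnc2 NM_139216 (-0.0052 to 0.056), Kcng1 (-0.035 to 0.0034), Kcnh2 (-0.014 to 0.038), Kcnj6 (-0.011 to 0.024), Kcnn1 (-0.054 to 0.0022) and Kcnq5 (-0.018 to 0.026). Between the drugs it did so for Kcna1 (-0.042 to 0.046) and Kcnj13 (-0.20 to 0.31).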
